A study of Mus musculus with 14 samples.

Results

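The genes described here are 33 genes of the interferon response and of antigen presentation in the mouse. They were chosen by name and found in the deposited count table, which lists 43346 genes, by mapping each Ensembl identifier to its symbol in GENCODE M21. They fall into 6 roles: 4 MHC class I molecules, 4 MHC class II molecules with the invariant chain, 3 genes of peptide transport and loading, 3 immunoproteasome subunits, 7 transactivators and transcription factors, and 12 effectors and regulators. Each library was made with SMART-Seq v4, which copies whole polyadenylated transcripts from few cells, out of 800 to 1000 live GFP-positive cells sorted from the hippocampus of wild-type C57BL/6 mice at day 14. The submitters call them abGCs, read here as adult-born granule cells, the neurons that the dentate gyrus keeps adding in adult life. There were 3 libraries of CAG-GFP Sham and 3 of DREADD Pilo, and 4 each of CAG-GFP Pilo and DREADD Sham. The CAG-GFP groups carried GFP under the CAG promoter. The DREADD groups carried a designer receptor that clozapine-N-oxide (CNO) activates, and the title of DREADD Pilo names its cells as silenced. The Pilo groups received 300 mg/kg pilocarpine, a muscarinic agonist, after scopolamine methyl nitrate and terbutaline, and the status epilepticus it sets off was ended with diazepam. The Sham groups are labelled as without seizures, and all 4 groups received CNO, so no group shows these genes without it. The age of the mice, the promoter of the DREADD and the cell type in which it is expressed are not stated by the sources used here.

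Interferons bind cell surface receptors whose kinases activate transcription factors, and with IRF factors these switch on a large set of antiviral and antigen presentation genes. MHC class I molecules, paired with B2m, show peptides from inside the cell to CD8 T cells and are made by nearly all nucleated cells, at low levels in resting neurons. MHC class II molecules show peptides taken up from outside to CD4 T cells, and in the brain they are known from border macrophages, dendritic cells and activated microglia rather than from neurons.

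Library totals ran from 10613291 to 38614639 counts, and the 3 CAG-GFP Sham libraries lay between 27965232 and 28432365. The labels do not say whether 2 libraries can come from 1 animal, and the p-values therefore reflect only how far these libraries differ, which may be technical. The 3 CAG-GFP Sham libraries were more alike (r across genes 0.910 to 0.915 on log2(CPM + 1)) than any pair within another group (0.557 to 0.847), though no pair agreed within sampling noise. Reads of pseudogenes took 0.117% to 0.2% of counts in one set of libraries (set 1: DREADD Sham 1 and 2, CAG-GFP Pilo 3 and 4, CAG-GFP Sham) and 4.33% to 8.12% in the other (set 2: CAG-GFP Pilo 1 and 2, DREADD Sham 3 and 4, DREADD Pilo), and neither set holds both CAG-GFP Sham and DREADD Pilo. Library names in the labels also differ in style between the sets (CAGSC, CAGPC and DREADSC against CAG_GFP, Dreadsc and hm4Digfp). CAG-GFP Pilo 4 had the fewest genes detected, 9372, and DREADD Pilo 3 had 25.8% mitochondrial counts and 156294 CPM (counts scaled to a common library size, with TMM factors) of markers of choroid plexus and ependyma. The labelled cell type was checked against its markers: 10 markers of the granule cell lineage summed to 79.1 to 1569 CPM per library, with C1ql2 at 0 in CAG-GFP Sham, and 14 microglia markers stood above that sum in 13 of 14 libraries. Fewer cells of a type and less RNA per cell cannot be told apart in such bulk samples.

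Stretches of promoter from RefSeq (GRCm38.p6) are shown for 4 of the genes, because the letters that class II and interferon-driven promoters are known for can be read in them directly. In the H2-Aa stretch (chr17:34287824-34287973, minus strand) capitals mark, in order, matches to an X1 motif (CTNGNAAC), an X2 motif (TGACGTCA) and a Y motif (CTGATTGG), the boxes through which the class II transactivator Ciita acts. In the H2-Eb1 stretch (chr17:34305717-34305866, plus strand) capitals mark X1 and Y. In the B2m (chr2:122147517-122147686, plus strand) and Bst2 (chr8:71537473-71537622, minus strand) stretches capitals mark the interferon-stimulated response element (ISRE, GAAANNGAAA), with 2 overlapping matches in Bst2.
H2-Aa: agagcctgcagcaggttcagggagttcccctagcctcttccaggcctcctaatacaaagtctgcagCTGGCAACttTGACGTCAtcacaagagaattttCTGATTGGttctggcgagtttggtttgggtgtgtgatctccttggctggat
H2-Eb1: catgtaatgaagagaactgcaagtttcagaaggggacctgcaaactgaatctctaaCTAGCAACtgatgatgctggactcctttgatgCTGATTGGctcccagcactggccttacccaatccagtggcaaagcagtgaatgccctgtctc
B2m: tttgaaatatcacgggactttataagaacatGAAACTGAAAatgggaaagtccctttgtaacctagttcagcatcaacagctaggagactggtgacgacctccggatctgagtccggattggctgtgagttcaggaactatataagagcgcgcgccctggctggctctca
Bst2: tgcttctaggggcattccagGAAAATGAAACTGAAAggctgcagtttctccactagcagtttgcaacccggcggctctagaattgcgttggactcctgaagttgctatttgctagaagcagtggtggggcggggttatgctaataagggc

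RefSeq windows were matched for 26 of the 33 genes, without H2-Ab1, Cd74, Tap2, Nlrc5, Ciita, Mx1 and Usp18, and the 250 bases before each start were searched on both strands. The ISRE letters were found in 9 of the 26 (B2m, H2-T23, Stat2, Ifit1, Ifit3, Isg15, Bst2, Rsad2 and Gbp2), against 3.46% of 27025 genes. The Y letters were in 7 of 26 (H2-D1, H2-T23, H2-Aa, H2-Eb1, Tap1, Psmb9 and Irf8), against 4.43% of genes, and the X2 letters were in H2-Aa alone among the 26, against 1.77%. The Y matches of Tap1 and Psmb9, which lie on opposite strands, are the same stretch of bases. X1 letters were in 7 of 26, against 12.5%, and the gamma-activated site (GAS, TTCNNNGAA) was in 5, against 8.13%. A match is a run of letters and was not tested as a binding site.

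The genes spanned a wide range of levels. Per kilobase of exon and over the 14 libraries, B2m was highest at 2653 CPM per kb, followed by Cd74 (351), H2-D1 (295) and Ifitm3 (292), and the transactivator Ciita was lowest at 0.0534 CPM per kb. Detection was broad, with counts for 19 of the 33 genes in every library. The genes did not move as a block by group, and single libraries carried the highest values. DREADD Sham 1 held the highest CPM for 10 genes and was among the 3 highest libraries for 22, while DREADD Pilo 2 was highest for 7 and DREADD Sham 3 for 5. DREADD Sham 2 and DREADD Pilo 3 were each among the 3 lowest for 17 genes, and 10 genes had no count in CAG-GFP Pilo 4.

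**Figure D1:**
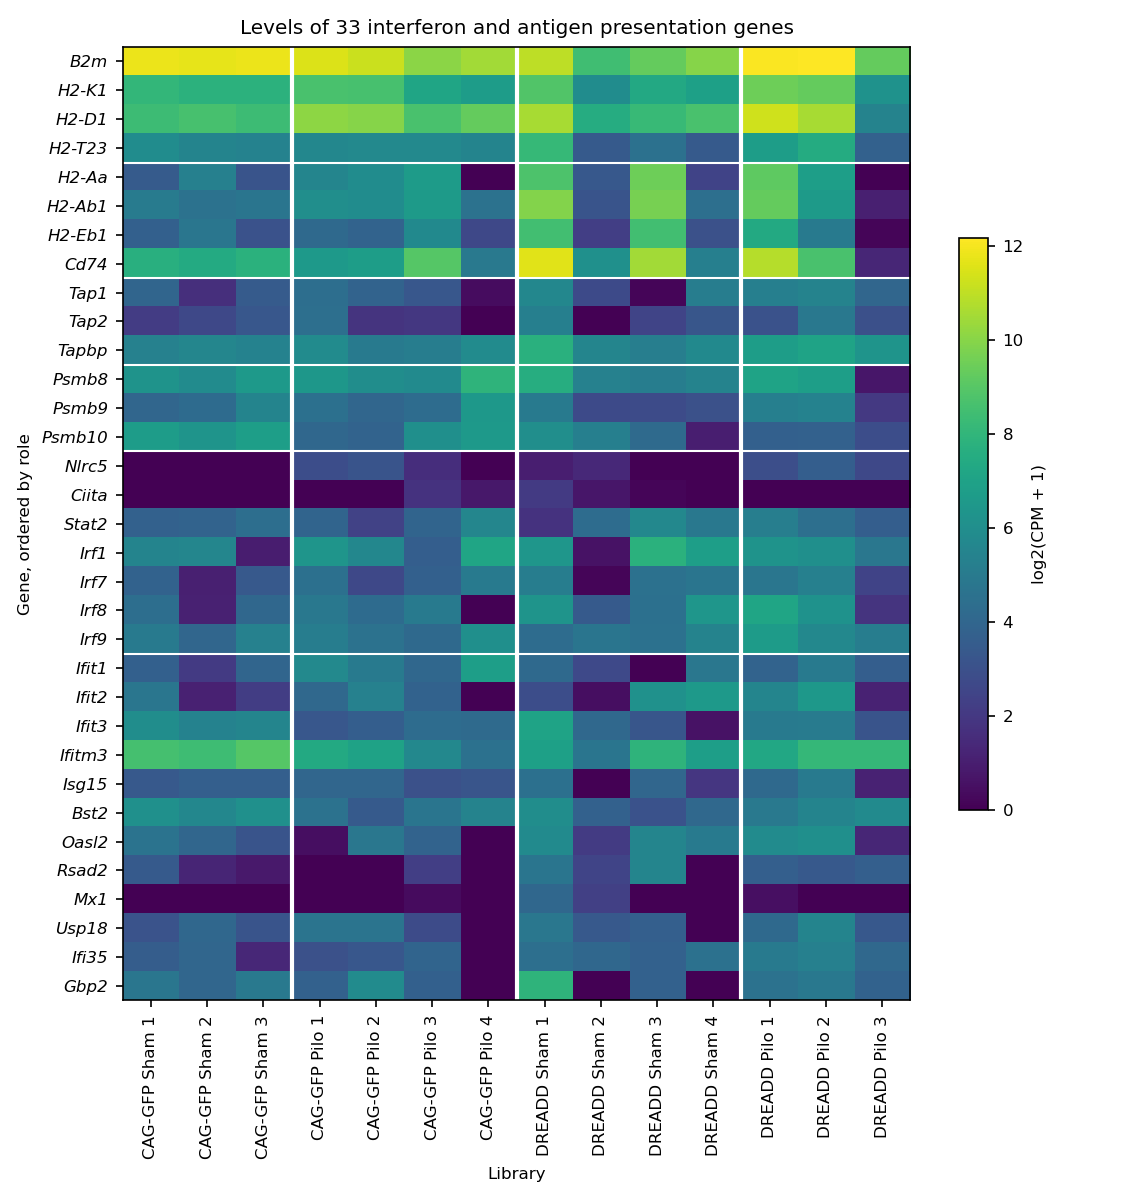
Levels of the 33 genes (rows, ordered by role) in the 14 libraries (columns, ordered by group), as log2(CPM + 1) on a colour scale. The 4 class II genes are bright in DREADD Sham 1, DREADD Sham 3 and DREADD Pilo 1 and dark in DREADD Pilo 3, and B2m is the highest gene in most libraries.

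Spread between libraries of a group differed by group, for these genes as for all genes tested. In DREADD Sham the highest library stood more than 10-fold above the lowest for 21 of 32 genes tested and more than 100-fold for 13, against 51.2% and 18.7% of all genes tested. The corresponding counts were 15 and 9 in CAG-GFP Pilo (64.6% and 33.7% of all genes), 13 and 5 in DREADD Pilo (29.6% and 4.44%) and 5 and 0 in CAG-GFP Sham (18.5% and 0.723%). For these ratios a library under 3 counts was set to 3 counts. All 9 genes over 100-fold in CAG-GFP Pilo had CAG-GFP Pilo 4 as their lowest library, at that floor. The floor also set the lowest value of some genes in DREADD Sham and DREADD Pilo. The median ratio of highest to lowest library was 45.0 for these genes in DREADD Sham against 10.7 for all genes, and 8.04 in CAG-GFP Pilo against 29.5. It was 4.40 in DREADD Pilo against 4.16, and 1.79 in CAG-GFP Sham against 2.07.

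B2m, the light chain of every class I molecule, was abundant in all libraries but uneven. Its levels were 3549, 3356 and 3664 CPM in CAG-GFP Sham 1 to 3 and were lower, at 2958, 2350, 1056 and 1452 CPM, in CAG-GFP Pilo 1 to 4. In DREADD Sham 1 to 4 it stood at 1987, 342, 631 and 987 CPM, and in DREADD Pilo 1 to 3 at 4361, 4616 and 637 CPM. Every CAG-GFP Pilo and every DREADD Sham library lay below every CAG-GFP Sham library, while DREADD Pilo had its 2 highest libraries above all others and 1 among the lowest. With library totals alone in place of TMM scaling, neither of these groups lay wholly below CAG-GFP Sham.

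H2-D1 is a classical class I heavy chain that binds peptide. It was at 325, 394 and 323 CPM in CAG-GFP Sham 1 to 3 and at 1099, 991, 414 and 620 CPM in CAG-GFP Pilo 1 to 4. The DREADD Sham libraries 1 to 4 held 1510, 186, 296 and 412 CPM, and DREADD Pilo 1 to 3 held 2491, 1530 and 42.9 CPM. The lowest of the CAG-GFP Pilo libraries was above the highest CAG-GFP Sham library, and both DREADD groups overlapped with CAG-GFP Sham. DREADD Pilo held both the highest and the lowest library. H2-K1, the second classical heavy chain, ranged from 59.2 CPM in DREADD Sham 2 to 727 CPM in DREADD Pilo 1, and H2-T23, a nonclassical class I molecule, from 9.75 CPM in DREADD Sham 4 to 288 CPM in DREADD Sham 1. These heavy chains are close paralogs, and how reads with several matches were counted is not given in the sources used here, so their separate levels are uncertain.

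The summed CPM of the class II genes was above 1000 in 3 libraries of 2 groups, a limit set after the values were seen, and intermediate in CAG-GFP Pilo 3 (756 CPM) and DREADD Pilo 2 (653 CPM). Cd74, the invariant chain that escorts class II molecules, stood at 203, 174 and 219 CPM in CAG-GFP Sham 1 to 3 and at 93.7, 109.6, 501 and 29.5 CPM in CAG-GFP Pilo 1 to 4. In DREADD Sham 1 to 4 it was at 3189, 68.0, 1416 and 37.2 CPM, and in DREADD Pilo 1 to 3 at 1796, 414 and 1.45 CPM. DREADD Sham 1 was thus 85.7-fold above the lowest library of its own group, and DREADD Pilo 1 was 1239.6-fold above DREADD Pilo 3. H2-Ab1, a class II beta chain, held 32.5, 23.1 and 25.8 CPM in CAG-GFP Sham and 62.8, 59.9, 98.1 and 23.3 CPM in CAG-GFP Pilo, in the order of their numbers. It held 961, 7.85, 805 and 20.9 CPM in DREADD Sham 1 to 4 and 620, 98.3 and 1.11 CPM in DREADD Pilo 1 to 3. The same 3 libraries were highest for H2-Ab1 as for Cd74, and its groups overlapped, though with library totals alone every CAG-GFP Pilo library lay above every CAG-GFP Sham library. H2-Aa, the alpha chain, and H2-Eb1, a second beta chain, had their highest level in DREADD Sham 3 (719 and 356 CPM), and DREADD Pilo 3 held no count of H2-Aa and 0.111 CPM of H2-Eb1.

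The summed CPM of the 4 class II genes was 259 to 262 in CAG-GFP Sham, 58.1 to 756 in CAG-GFP Pilo, 69.7 to 4935 in DREADD Sham and 2.68 to 3151 in DREADD Pilo. All 14 microglia markers were detected in each group, and their sum was 3814 to 3949.6 CPM in CAG-GFP Sham, 4801 to 11396 in CAG-GFP Pilo, 626 to 12482 in DREADD Sham and 201 to 30899.9 in DREADD Pilo. DREADD Pilo 3 had the lowest value of both sums and DREADD Pilo 1 the highest microglia sum, but the order was not shared throughout. DREADD Sham 4 had 12482 CPM of microglia markers and 69.7 CPM of class II genes, and DREADD Sham 1 had 5704 and 4935 CPM. Class II stood at 86.5 CPM per 100 CPM of microglia markers in DREADD Sham 1 and 62.1 in DREADD Sham 3, at 6.55 to 6.87 in CAG-GFP Sham and at 0.559 in DREADD Sham 4. The 6 markers of border macrophages summed to at most 7.11 CPM in CAG-GFP Sham, with Mrc1, Cd163, Lyve1 and F13a1 at 0, and to at most 4.47 CPM in CAG-GFP Pilo, with Mrc1 at 0. Their sum was 0 to 77.7 CPM in DREADD Sham, with Lyve1 and Pf4 at 0 in the group and a sum of 0.0246 CPM in DREADD Sham 1, and 4.01 to 52.9 CPM in DREADD Pilo. The 7 lymphocyte markers summed to 8.70 to 29.0 CPM in CAG-GFP Sham, 37.9 to 201 in CAG-GFP Pilo, 0.162 to 78.6 in DREADD Sham and 2.12 to 305 in DREADD Pilo, with Cd8a at 0 in each group. The part of these cell types in the class II levels was not tested.

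**Figure D2:**
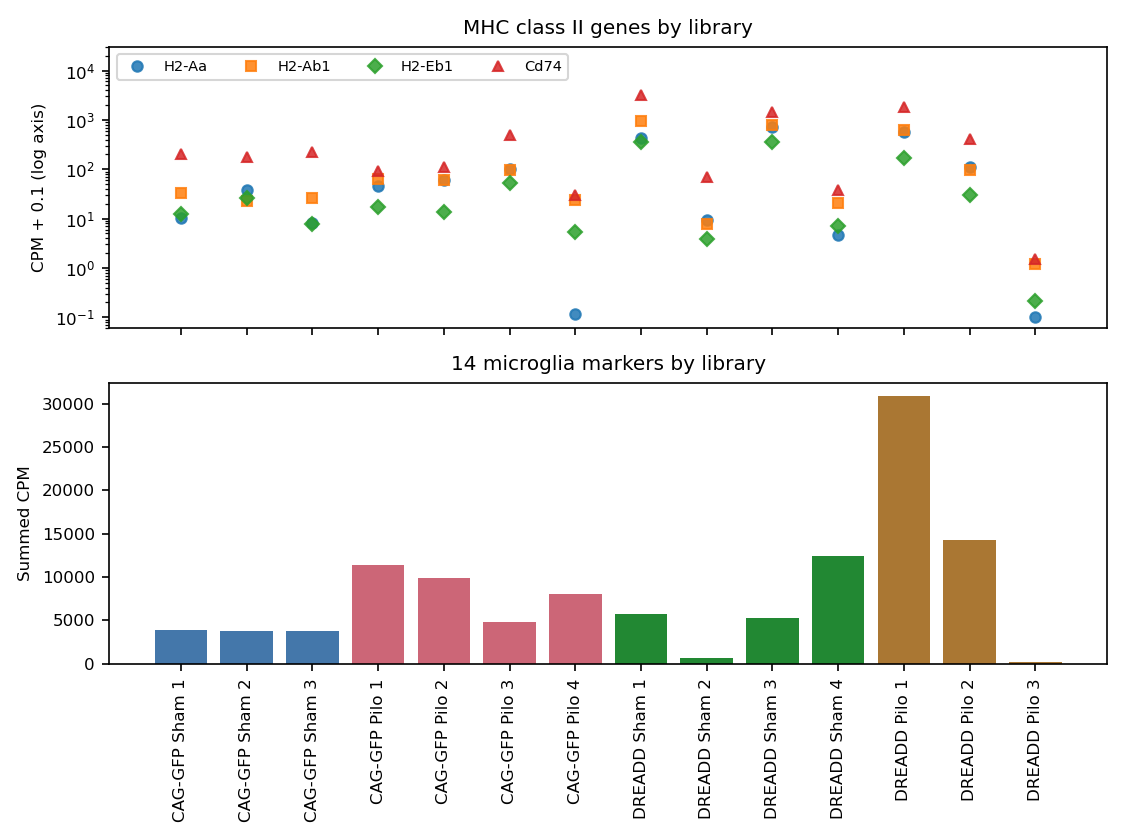
Upper panel, CPM of the 4 class II genes in each of the 14 libraries on a log axis (CPM + 0.1); lower panel, summed CPM of 14 microglia markers in the same libraries as bars from 0. Class II genes are highest in DREADD Sham 1, DREADD Sham 3 and DREADD Pilo 1, and DREADD Sham 4 has more microglia marker CPM than DREADD Sham 1 with less class II.

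Among the genes of peptide transport and loading, Tap1 forms, with Tap2, the transporter that brings peptides into the endoplasmic reticulum. Tap1 was at 14.8, 2.07 and 10.2 CPM in CAG-GFP Sham 1 to 3 and at 19.9, 13.5, 8.91 and 0.337 CPM in CAG-GFP Pilo 1 to 4. DREADD Sham 1 to 4 held 48.5, 5.71, 0.117 and 35.3 CPM, and DREADD Pilo 1 to 3 held 37.3, 42.2 and 15.4 CPM. Each DREADD Pilo library exceeded the highest CAG-GFP Sham library, by a narrow margin for DREADD Pilo 3, and the other groups overlapped with CAG-GFP Sham. Tapbp, tapasin, holds class I molecules at this transporter. It was even in CAG-GFP Sham (40.3, 46.3 and 41.8 CPM in libraries 1 to 3) and stood at 57.1, 31.0, 34.2 and 58.1 CPM in CAG-GFP Pilo 1 to 4. The DREADD Sham libraries 1 to 4 had 212, 45.2, 36.5 and 53.8 CPM, and DREADD Pilo 1 to 3 had 107, 134 and 78.9 CPM. The 3 DREADD Pilo libraries lay above every library of both CAG-GFP groups, and with library totals alone this held against CAG-GFP Sham but not against CAG-GFP Pilo. Tap2 ranged from 0 in CAG-GFP Pilo 4 and DREADD Sham 2 to 36.7 CPM in DREADD Sham 1. Exons of Tap1 share 212 bases with those of Psmb9 on the opposite strand, and 24.9% of the exon bases of Tapbp lie opposite an antisense gene. Whether strand was used in counting is not given in the sources used here, so reads in these stretches cannot be told apart.

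The immunoproteasome subunits replace constitutive subunits of the proteasome and change which peptides it makes. Psmb8 stood at 75.0, 56.8 and 94.6 CPM in CAG-GFP Sham 1 to 3 and at 84.7, 62.0, 55.8 and 238 CPM in CAG-GFP Pilo 1 to 4. It was at 193, 39.9, 34.5 and 42.6 CPM in DREADD Sham 1 to 4 and at 132, 112 and 0.669 CPM in DREADD Pilo 1 to 3. One library stood apart in each group but CAG-GFP Sham, upward in CAG-GFP Pilo 4 and DREADD Sham 1 and downward in DREADD Pilo 3. Psmb10 was at 106, 77.2 and 112 CPM in CAG-GFP Sham 1 to 3 and at 15.6, 13.5, 66.0 and 91.8 CPM in CAG-GFP Pilo 1 to 4. DREADD Sham 1 to 4 held 63.1, 37.7, 17.7 and 1.04 CPM, and DREADD Pilo 1 to 3 held 12.1, 12.7 and 6.35 CPM. Its levels followed the library set: all 7 libraries of set 1 (37.7 to 112 CPM) lay above all 7 of set 2 (1.04 to 17.7 CPM). Psmb10 was the 1 of 32 genes of which this was true, against 3.82% of all genes tested, and no gene had set 1 wholly below set 2, against 5.23%. Psmb9 ranged from 3.12 CPM in DREADD Pilo 3 to 90.1 CPM in CAG-GFP Pilo 4.

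The 2 transactivators were scarce. Nlrc5, which drives class I genes, had no count in the 3 CAG-GFP Sham libraries and stood at 6.30, 8.02, 2.00 and 0 CPM in CAG-GFP Pilo 1 to 4. It was at 1.01, 1.66, 0 and 0 CPM in DREADD Sham 1 to 4 and at 6.61, 11.4 and 5.24 CPM in DREADD Pilo 1 to 3. Every DREADD Pilo library lay above every CAG-GFP Sham and DREADD Sham library. Ciita, the master regulator of class II genes, had no count in CAG-GFP Sham or DREADD Pilo. It stood at 0, 0, 2.42 and 0.729 CPM in CAG-GFP Pilo 1 to 4 and at 3.22, 0.649, 0.117 and 0 CPM in DREADD Sham 1 to 4. Ciita was thus highest in DREADD Sham 1, which also had the highest Cd74 and H2-Ab1. But it was at 0 in DREADD Pilo 1 and at 0.117 CPM in DREADD Sham 3, which were high for class II genes as well. Both of these are libraries of set 2, where Ciita reached at most 0.117 CPM, against at most 3.22 CPM in set 1.

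Of the transcription factors, Irf1, an early interferon-gamma target, was at 44.3, 47.6 and 0.996 CPM in CAG-GFP Sham 1 to 3 and at 80.7, 48.9, 11.4 and 142 CPM in CAG-GFP Pilo 1 to 4. It stood at 82.7, 0.519, 218 and 114 CPM in DREADD Sham 1 to 4 and at 75.7, 66.1 and 27.0 CPM in DREADD Pilo 1 to 3. The groups overlapped, and single libraries near 1 CPM or below stood in 2 of them. Irf8, a factor that microglia and other myeloid cells depend on, was at 19.9, 1.18 and 15.6 CPM in CAG-GFP Sham 1 to 3 and at 27.9, 18.1, 31.2 and 0 CPM in CAG-GFP Pilo 1 to 4. The DREADD Sham libraries held 78.3, 9.77, 21.5 and 83.7 CPM and the DREADD Pilo libraries 141, 71.8 and 2.56 CPM, in the order of their numbers. Its highest and lowest libraries in DREADD Pilo, 1 and 3, were also those with the highest and lowest sum of microglia markers, whose part in it was not tested. Irf9, a DNA-binding factor of the type I interferon response, was at 31.5, 15.4 and 39.5 CPM in CAG-GFP Sham 1 to 3 and at 34.5, 23.3, 16.8 and 66.5 CPM in CAG-GFP Pilo 1 to 4. It held 18.5, 25.3, 22.2 and 42.5 CPM in DREADD Sham 1 to 4 and 101, 50.1 and 34.3 CPM in DREADD Pilo 1 to 3. Irf9 had no empty library, and its groups overlapped. Stat2 ranged from 2.48 CPM in DREADD Sham 1 to 50.1 CPM in DREADD Sham 3, and Irf7, the factor that amplifies type I interferon, from 0.130 CPM in DREADD Sham 2 to 38.7 CPM in DREADD Pilo 2.

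Among the effectors, Ifitm3, a membrane protein that blocks the entry of viruses, stood out for its level in CAG-GFP Sham. It was at 379, 332 and 491 CPM in CAG-GFP Sham 1 to 3 and at 165, 128, 50.1 and 22.5 CPM in CAG-GFP Pilo 1 to 4. In DREADD Sham 1 to 4 it stood at 119, 25.6, 241 and 114 CPM, and in DREADD Pilo 1 to 3 at 158, 272 and 273 CPM. All 11 libraries of the other groups lay below the 3 CAG-GFP Sham libraries. With library totals alone this held for CAG-GFP Pilo, and the DREADD groups then overlapped with CAG-GFP Sham. Markers of astrocytes had the same arrangement, with sums of 25862 to 27182 CPM in CAG-GFP Sham and 725 to 5982 CPM in the other groups, and their part in the level of Ifitm3 was not tested. Bst2, tetherin, which holds budding viruses at the cell surface, was at 68.9, 48.1 and 67.1 CPM in CAG-GFP Sham 1 to 3 and at 22.8, 9.77, 25.5 and 42.6 CPM in CAG-GFP Pilo 1 to 4. It stood at 60.7, 12.7, 7.47 and 16.2 CPM in DREADD Sham 1 to 4 and at 29.0, 44.7 and 56.1 CPM in DREADD Pilo 1 to 3. CAG-GFP Pilo lay wholly below CAG-GFP Sham, which did not hold with library totals alone, and the DREADD groups overlapped with CAG-GFP Sham.

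The other effectors had lower means over the 14 libraries than Bst2. Ifit1, Ifit2 and Ifit3, which bind viral RNA or the proteins around it, ranged from 0 to 112, 0 to 90.7 and 0.522 to 133 CPM, and as members of 1 family they may share reads. Isg15, a ubiquitin-like protein, ranged from 0 to 31.2 CPM, and Usp18, the protease that removes it from proteins, from 0 to 43.4 CPM. Rsad2, viperin, had no count in 4 libraries, 3 of them CAG-GFP Pilo, and reached 44.8 CPM in DREADD Sham 3. Gbp2, a guanylate-binding protein, reached 240 CPM in DREADD Sham 1 and at most 57.9 CPM elsewhere, Oasl2 ran from 0 to 66.8 CPM, and Ifi35 from 0 to 38.4 CPM. Mx1 had no count in 10 libraries and was the 1 of the 33 genes too low for the test. Its highest level was 16.0 CPM in DREADD Sham 1.

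**Figure D3:**
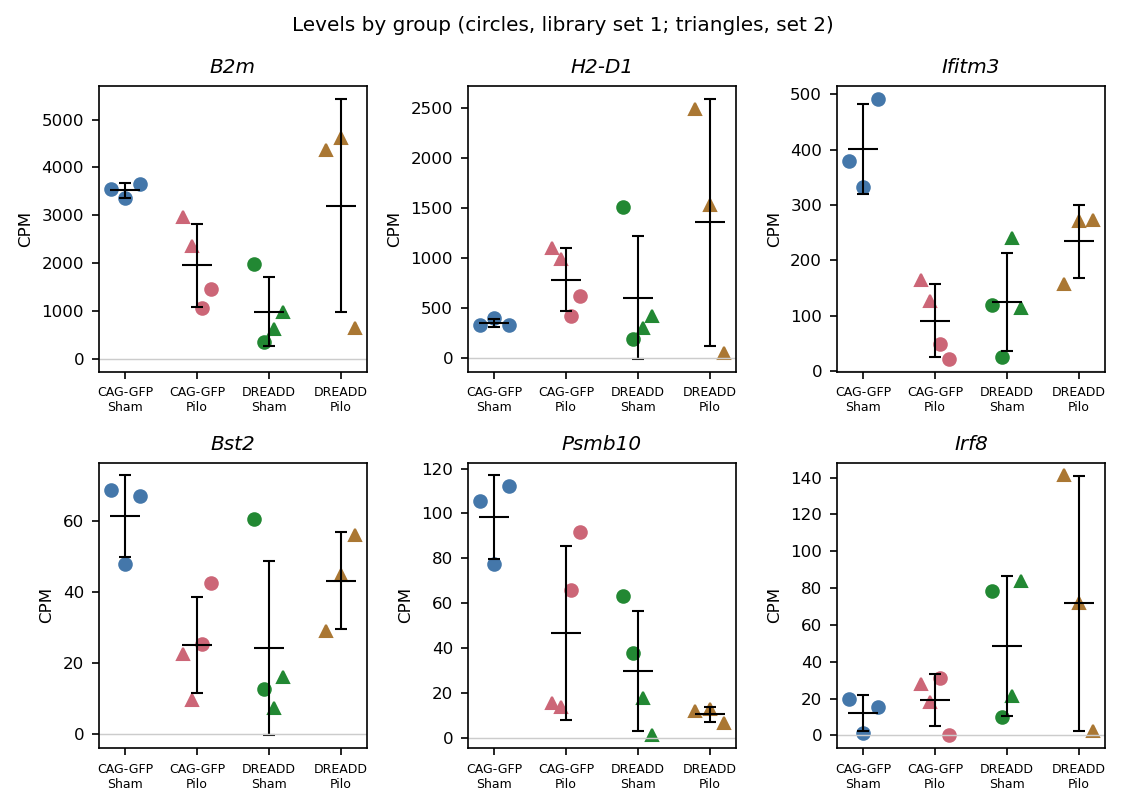
CPM of B2m, H2-D1, Ifitm3, Bst2, Psmb10 and Irf8 by group, 1 point per library (circles set 1, triangles set 2), with the mean and SD of each group. Psmb10 separates circles from triangles in each group that holds both, and Ifitm3 is higher in the 3 CAG-GFP Sham libraries (332 to 491 CPM) than in the other 11.

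The comparison of CAG-GFP Pilo with CAG-GFP Sham asks how these genes stood in CAG-GFP cells after seizures. H2-D1 and Ifit1 lay above CAG-GFP Sham in every CAG-GFP Pilo library, 2 of 32 genes against 6.55% of all genes tested, and B2m, Ifit3, Ifitm3 and Bst2 lay below in every library, 4 of 32 against 12.2%. With library totals alone the counts were 5 above (H2-D1, H2-T23, H2-Ab1, Ifit1 and Isg15) and 2 below (Ifit3 and Ifitm3). Markers of other cell types differed between these groups too: 8 oligodendrocyte markers summed to 546 to 647 CPM in CAG-GFP Sham and 1270.0 to 36529 CPM in CAG-GFP Pilo, and 7 blood cell markers to at most 7.81 CPM in CAG-GFP Sham but 18308 CPM in CAG-GFP Pilo 4. Their part in the differences was not tested. Ifitm3 had group means of 91.4 ± 66.4 CPM (SD, n = 4) and 401 ± 81.7 CPM (SD, n = 3) and a log2 fold change of -2.13 ± 0.73 (SE, edgeR adjusted p = 0.285). In set 1 alone, with 2 CAG-GFP Pilo libraries, it was -3.51 ± 0.71 (edgeR adjusted p = 0.0436), and with the set as a covariate -3.27 ± 0.62 (edgeR adjusted p = 0.0391). Nlrc5 was at least 80.8-fold higher in CAG-GFP Pilo and Ciita at least 15.6-fold, against 3 counts over the empty CAG-GFP Sham group, with edgeR adjusted p of 0.285 and 0.326. Nlrc5 was at 6.30 and 8.02 CPM in the set 2 libraries of CAG-GFP Pilo and at 2.00 and 0 CPM in those of set 1, the set of CAG-GFP Sham. The bound for Ciita was 4.82-fold without CAG-GFP Pilo 3. No gene of the 32 passed an adjusted p of 0.05 in edgeR, against 0.241% of all genes (45 genes, and 3 to 15 with a library left out). At an unadjusted p under 0.05 there were 2 genes (15.4% of all genes), and DESeq2 called 1, Nlrc5 (13.4%). Of the 32, 22 had a higher and 10 a lower estimate, with a median log2 fold change of 0.27 against 0.41 over all genes.

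DREADD Sham against CAG-GFP Sham compares the 2 constructs without seizures. Both groups received CNO, which activates the DREADD, though the title of DREADD Sham does not name its cells as silenced. Both this and the next comparison use the same CAG-GFP Sham libraries as the previous one. B2m, Psmb10 and Ifitm3 lay below CAG-GFP Sham in every DREADD Sham library, 3 of 32 genes against 12.7% of all genes, and no gene lay above in every library, against 9.01%. With library totals alone these counts turned round, to 2 above (Tapbp and Ifi35) and 0 below. Oligodendrocyte markers summed to 546 to 647 CPM in CAG-GFP Sham and 18336 to 39562 CPM in DREADD Sham. Markers of pericytes and smooth muscle summed to 18.9 to 23.2 CPM and 15.1 to 1452 CPM, and those of choroid plexus and ependyma to 2155 to 2811 CPM and 227 to 13691 CPM. The part of such markers in this and the later comparisons was not tested. B2m averaged 987 ± 717 CPM (SD, n = 4) against 3523 ± 156 CPM (SD, n = 3), which gave a log2 fold change of -1.84 ± 0.69 (SE, edgeR adjusted p = 0.224), and -1.62 ± 0.62 within set 1 (edgeR adjusted p = 0.325). Ifitm3 averaged 125 ± 88.3 CPM (SD, n = 4), with a log2 fold change of -1.68 ± 0.72 (edgeR adjusted p = 0.251), and within set 1 of -2.50 ± 0.67 (edgeR adjusted p = 0.119). H2-Ab1 averaged 449 ± 506 CPM (SD, n = 4) against 27.1 ± 4.87 CPM (SD, n = 3), which gave a log2 fold change of 4.05 ± 1.70 (edgeR adjusted p = 0.245), and 4.13 ± 1.39 within set 1 (edgeR adjusted p = 0.239). The mean of H2-Ab1 rested on DREADD Sham 1 and 3, since the other libraries of the group lay below CAG-GFP Sham. In edgeR, 0 of 32 genes passed (0.3% of all genes, which is 56 genes, and 6 to 12 with a library left out), 5 had an unadjusted p under 0.05 (18.6%), and DESeq2 called 1, H2-Ab1 (15.6%). Estimates were higher for 23 genes and lower for 9, with a median log2 fold change of 0.99 against 0.53 over all genes.

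DREADD Pilo against CAG-GFP Sham sets silenced cells after seizures beside cells without either. Tap1, Tapbp, Nlrc5 and Ifi35 lay above CAG-GFP Sham in every DREADD Pilo library, 4 of 32 against 19.8% of all genes, and Psmb10, Ifit3 and Ifitm3 lay below, 3 of 32 against 14.9%. Scaled by library totals alone, 5 lay above, Rsad2 being added, and 1, Psmb10, below. Psmb10 averaged 10.4 ± 3.5 CPM (SD, n = 3) against 98.3 ± 18.6 CPM (SD, n = 3), which gave a log2 fold change of -3.24 ± 1.13 (SE, edgeR adjusted p = 0.205). These 2 groups lie in different library sets, and with the set as a covariate the value was -0.81 ± 1.0 (edgeR adjusted p = 0.892). Nlrc5 was at least 154-fold higher in DREADD Pilo (edgeR adjusted p = 0.205). It reached at most 2.00 CPM in set 1, against 0 to 11.4 CPM with a median of 6.30 CPM in set 2. Those set 2 values include DREADD Pilo itself. Within CAG-GFP Pilo, set 2 was higher (6.30 and 8.02 CPM against 2.00 and 0 CPM). Within DREADD Sham, set 1 was higher (1.01 and 1.66 CPM against 0 and 0 CPM). With the set as a covariate the edgeR adjusted p of Nlrc5 was 0.368. Group and set cannot be told apart for Nlrc5 in this comparison. H2-D1 averaged 1355 ± 1233 CPM (SD, n = 3) against 347 ± 40.4 CPM (SD, n = 3), which gave a log2 fold change of 1.96 ± 1.02 (edgeR adjusted p = 0.301), with 2.47 ± 0.75 without DREADD Pilo 3 (edgeR adjusted p = 0.157) and 1.12 ± 1.06 without DREADD Pilo 1 (edgeR adjusted p = 0.704). In edgeR, 0 of 32 genes passed (0.225% of all genes, which is 42 genes, and 4 to 152 with a library left out), 2 had an unadjusted p under 0.05 (19.2%), and DESeq2 called 2, Psmb10 and Nlrc5 (16.5%). Estimates were higher for 25 genes and lower for 6, and Ciita had no count in either group, with a median log2 fold change of 1.12 against 0.66 over all genes.

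DREADD Pilo against CAG-GFP Pilo compares DREADD cells named as silenced with CAG-GFP cells, both after seizures. Tapbp, Rsad2 and Ifi35 lay above CAG-GFP Pilo in every DREADD Pilo library, 3 of 32 against 5.69% of all genes, and Psmb10 lay below, 1 of 32 against 3.15%. Under library totals alone 2 lay above, Ifitm3 and Rsad2, and Psmb10 below. Tapbp averaged 107 ± 27.5 CPM (SD, n = 3) against 45.1 ± 14.5 CPM (SD, n = 4), which gave a log2 fold change of 1.24 ± 0.63 (SE, edgeR adjusted p = 0.882), and 1.29 ± 0.56 within set 2 (edgeR adjusted p = 0.770). Psmb10 had a log2 fold change of -2.17 ± 1.05 (edgeR adjusted p = 0.882), and of -0.47 ± 1.28 within set 2 (edgeR adjusted p = 1). Ciita was at least 12-fold higher in CAG-GFP Pilo (edgeR adjusted p = 0.882), and 3.70-fold without CAG-GFP Pilo 3. Its counts in CAG-GFP Pilo came from the libraries of set 1 (2.42 and 0.729 CPM). The libraries of set 2, the set of DREADD Pilo, had 0 CPM in both groups. In edgeR, 0 of 32 genes passed (0% of all genes), 0 had an unadjusted p under 0.05 (5.36%), and DESeq2 called 0 (1.25%). Estimates were higher for 26 genes and lower for 6, with a median log2 fold change of 0.82 against 0.28 over all genes.

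DREADD Pilo against DREADD Sham compares cells with the DREADD after seizures and without, and both groups received CNO. Nlrc5 lay above DREADD Sham in every DREADD Pilo library, 1 of 32 genes against 4.39% of all genes, and no gene lay below, against 2.23%. B2m averaged 3205 ± 2227 CPM (SD, n = 3) against 987 ± 717 CPM (SD, n = 4), which gave a log2 fold change of 1.70 ± 0.69 (SE, edgeR adjusted p = 0.954). Leaving out DREADD Pilo 2 gave the lowest value, 1.31, and leaving out DREADD Sham 1 the highest, 2.29. It was 2.15 ± 0.57 without DREADD Pilo 3 (edgeR adjusted p = 1) and was 1.98 ± 0.93 within set 2 (edgeR adjusted p = 0.636). Irf9 averaged 61.9 ± 34.9 CPM (SD, n = 3) against 27.1 ± 10.6 CPM (SD, n = 4), which gave a log2 fold change of 1.19 ± 0.68 (edgeR adjusted p = 1), and 0.93 ± 0.70 within set 2 (edgeR adjusted p = 0.786). Ciita was at least 15.2-fold higher in DREADD Sham (edgeR adjusted p = 0.956), and 3.89-fold without DREADD Sham 1. In DREADD Sham it stood at 3.22 and 0.649 CPM in set 1 but at 0.117 and 0 CPM in set 2. DREADD Pilo lies wholly in set 2. In edgeR, 0 of 32 genes passed (0% of all genes), 1 had an unadjusted p under 0.05 (5.18%), and DESeq2 called 0 (0.972%). Estimates were higher for 21 genes and lower for 11, with a median log2 fold change of 0.29 against 0.07 over all genes.

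The interaction asks whether the difference of Pilo from Sham was the same in DREADD and CAG-GFP cells. Ifitm3 had the smallest p, with a difference of log2 fold changes of 3.04 ± 1.02 (SE, edgeR adjusted p = 0.377), followed by Ciita (edgeR adjusted p = 0.380) and B2m at 2.55 ± 0.96 (edgeR adjusted p = 0.412). Both Ifitm3 and B2m were lower in Pilo than in Sham among the CAG-GFP groups and higher among the DREADD groups, in group means. In edgeR, 0 of 32 genes passed (0% of all genes), 3 had an unadjusted p under 0.05 (11.7%), and DESeq2 called 0 (8.63%). The interaction was above 0 for 17 genes and below for 15, with a median of 0.01 against -0.43 over all genes.

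**Figure D4:**
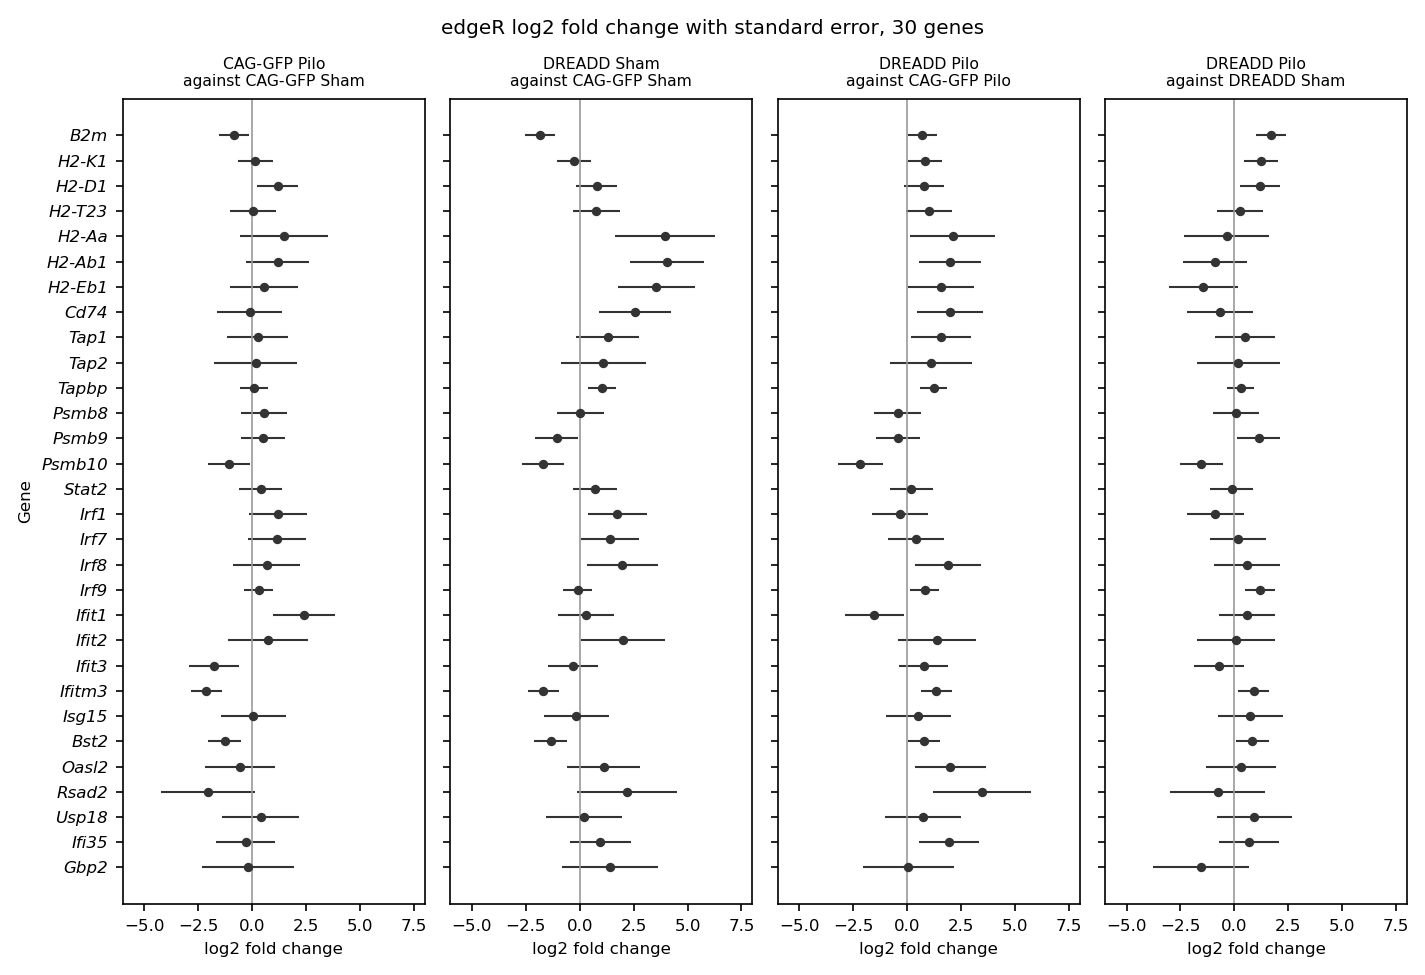
Log2 fold changes (x axis) of 30 of the genes (y axis, ordered by role) in 4 comparisons, each point an edgeR estimate with its SE as a bar; Nlrc5 and Ciita, which have groups without a count, and Mx1, which was not tested, are left out. No adjusted p was under 0.05, and the widest bars include those of Rsad2, Gbp2 and H2-Aa.

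The directions of these estimates depend on scaling. With library totals alone in place of TMM, the median log2 fold change of all genes moved by 0.68, 0.78 and 0.45 in the first 3 comparisons above, those with CAG-GFP Sham, by -0.19 and -0.30 in those of DREADD Pilo with CAG-GFP Pilo and DREADD Sham, and by -0.99 in the interaction. The number of the 32 genes with a higher estimate was then 26, 27, 27, 25, 18 and 8 in the same order.

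A further 58 genes of the same pathways, from receptors and kinases to chaperones and proteasome activators, were counted as a list, and 55 were tested. In edgeR none passed in any of the 6 comparisons, and 1, 7, 8, 0, 1 and 3 had an unadjusted p under 0.05 in the order of the comparisons above, against 15.4%, 18.6%, 19.2%, 5.36%, 5.18% and 11.7% of all genes. DESeq2 called 2, 3, 3, 0, 1 and 3 of the list, against 13.4%, 15.6%, 16.5%, 1.25%, 0.972% and 8.63% of all genes. Psme1, a proteasome activator subunit, averaged 193 ± 17.9 CPM (SD, n = 3) in CAG-GFP Sham. Its means were lower in the other groups, at 66.6 ± 47.0 CPM (SD, n = 4) in CAG-GFP Pilo, 46.1 ± 20.1 CPM (SD, n = 3) in DREADD Pilo and 57.3 ± 52.8 CPM (SD, n = 4) in DREADD Sham (edgeR adjusted p = 0.332 for CAG-GFP Pilo against CAG-GFP Sham). Within these groups it was higher in set 1 (93.2 and 119 CPM in CAG-GFP Pilo, 132 and 57.3 CPM in DREADD Sham) than in set 2 (30.5 and 23.5 CPM, 19.1 and 21.02 CPM). All of these overlapped each other, and every library of the other groups lay below CAG-GFP Sham. Sp100, a nuclear body protein, had no count in CAG-GFP Sham. It averaged 17.3 ± 14.7 CPM (SD, n = 3) in DREADD Pilo, 10.7 ± 11.9 CPM (SD, n = 4) in DREADD Sham and 3.80 ± 6.21 CPM (SD, n = 4) in CAG-GFP Pilo. These groups overlapped each other, and the smallest edgeR adjusted p was 0.172, for DREADD Pilo against CAG-GFP Sham. Cxcl9, a chemokine induced by interferon-gamma, had no count in CAG-GFP Sham and reached 256 CPM in DREADD Sham 1 and 63.4 CPM in DREADD Pilo 1, both high for class II genes, but had no count in DREADD Sham 3. Ifnar2, a chain of the type I interferon receptor, averaged 22.2 ± 11.2 CPM (SD, n = 3) in CAG-GFP Sham and 84.9 ± 28.0 CPM (SD, n = 3) in DREADD Pilo (edgeR adjusted p = 0.205).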

How the data were processed

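The table deposited by the authors holds whole-number read counts by gene that were not normalized. The submitters' processing notes name edgeR, R 4.1.1, Subread with featureCounts, Bowtie2 and the build hg38, although every identifier is a mouse Ensembl identifier. Strand use and the treatment of reads with several matches are not stated there. Symbols and positions came from GENCODE M21 (GRCm38), which matched 42462 of 43346 identifiers (98%).

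All 14 libraries were fitted together in edgeR 4.0.16 (R 4.3.3), with TMM scaling, the filterByExpr filter (18676 genes kept, 32 of the 33 described), a quasi-likelihood F-test and Benjamini-Hochberg adjustment over all genes tested, with a threshold of 0.05. The biological coefficient of variation was 1.47. CPM were computed from the counts with each library's total and its TMM factor. A group without counts was set to 3 counts over the group for a lower bound, which covers counting error only, as PCR copies of a molecule are counted too.

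The 33 genes, the lists and the tests were chosen with earlier results of these data known. Values by library are given for genes past the threshold, for the 3 smallest p in each of 6 comparisons, and for the 2 highest mean CPM per role. The remaining genes are given by range. H2-Aa and H2-Eb1 promoters and the Ifit, Gbp2, Mx1 and other single values outside that rule were chosen after their values were seen. Alternatives were DESeq2 1.42.0, other scalings and filters, only the groups compared, library set as a covariate or alone, the replicate number as a block, and each library left out. Adding up CAG-GFP Sham into 1 sample is an alternative chosen after seeing the data. Fits were tested on simulated data.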

Additional observations from a re-analysis of the deposited data

Results flagged for a closer look

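Among 30 sets of 4 libraries (15 genes in CAG-GFP Pilo and in DREADD Sham), 2 had a library whose gap to its nearest neighbour, on log2(CPM + 1), was a larger share of the group's range than Dixon's critical value for 4 samples. Chance alone marks about 1 in 20 such sets. Psmb8, an immunoproteasome subunit, stood at 193 CPM in DREADD Sham 1, with a gap of 0.879 of the range, while the other libraries of that group lay at 34.5 to 42.6 CPM. Irf8, the myeloid transcription factor, was at 0 CPM in CAG-GFP Pilo 4, with a gap of 0.849 of the range, while the other libraries of that group lay at 18.1 to 31.2 CPM. DREADD Sham 1 also held the highest level of 10 of the 33 genes, and CAG-GFP Pilo 4 had no count for 10 of them.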

How the results depend on the processing

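The count of genes past the adjusted threshold was 0 in edgeR for each comparison, and 91 of 97 values under alternatives were the same. For CAG-GFP Pilo against CAG-GFP Sham it was 1 with DESeq2 (Nlrc5), 1 with library set as a covariate and 1 within set 1 (both Ifitm3). For DREADD Sham against CAG-GFP Sham it was 1 with DESeq2 (H2-Ab1). For DREADD Pilo against CAG-GFP Sham it was 2 with DESeq2 and 2 with only the groups compared (Psmb10 and Nlrc5 in both). The cause was not tested. Leaving out each library in turn gave 0 to 0 in every comparison. None of the 18 reported fold changes changed direction. Mean levels stayed within 1 SD in 51 of 60 cases with library totals alone, where the 9 others were CAG-GFP Sham means. With a library left out they did so in 210 of 210 cases. That check decides nothing, because leaving out 1 of 3 or 4 libraries cannot move a mean by 1 SD. With the replicate number as a block the count was 0 in every comparison. Of 19 same-number pairs, 1 had a correlation of deviations over 0.1 (range -0.42 to 0.14), and 1 library correlated best with its own number. The deviations also went with the library set: CAG-GFP Pilo 1 had r of 0.306 with DREADD Sham 3 (same set) and -0.327 with DREADD Sham 1 (other set). This check therefore cannot decide whether the numbers pair the libraries. Over all genes, the block moved the calls from 45 to 1, 56 to 0 and 42 to 9 in the 3 comparisons with CAG-GFP Sham, DESeq2 to 2407, 2884 and 2951, only the groups compared to 168, 647 and 2407, and summing CAG-GFP Sham to 1 sample to 0 in each. With library set as a covariate 89, 146 and 40 genes were called in these comparisons, and within set 1 471 and 530 in the first and second. Leaving out a library gave 3 to 15, 6 to 12 and 4 to 152, with 152 reached without DREADD Pilo 3. No fit within set 2 was possible with CAG-GFP Sham, or within set 1 with DREADD Pilo. Precision is limited by 3 or 4 libraries per group and a biological coefficient of variation of 1.47.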
